A study of Mus musculus with 2 samples.

Results

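The genes described here are 46 interferon-stimulated and nucleic acid sensing genes of the mouse, taken as a named list and matched by symbol to the gene tables, which hold 43346 Ensembl genes, 21461 of them protein coding and nuclear. All 46 were matched. They were measured by total RNA sequencing in 2 libraries, each made from a pool of 100 hematopoietic stem cells, the rare marrow cells that renew themselves and feed every blood lineage. Both pools came from adult male C57BL/6J mice of 5 to 6 weeks. The labels name no treatment and no altered allele, number the libraries as biological replicates 1 and 2, and give both a single donor identifier under different biosample identifiers. The labels do not say whether separate animals were used or which surface markers defined the cells, so the spread between libraries may be technical. With 1 group of 2 libraries there is no second condition and no test, and every difference below is a description of these libraries.

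Interferons are secreted proteins that cells release on sensing foreign nucleic acid. They bind receptors that activate JAK kinases and STAT proteins, which join IRF9 to switch on a large set of interferon-stimulated genes. Many of these genes are themselves sensors, signalling factors or blockers of viral growth, and cells that have met no virus usually keep part of the set on at a low, tonic level. In mice, stem cells of the marrow respond to interferon, which can draw them out of dormancy.

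Expected counts, which are estimated reads per gene, summed to 48307541 in replicate 1 and 28945004 in replicate 2, of which 19528380 and 10411450 lay on nuclear protein coding genes. Levels are in TPM, abundance per transcript length out of a set total, and detection required both 1 TPM and an expected count of 10. A single non-coding gene, Gm42418, took 29.8% of all TPM in replicate 1 and 40.9% in replicate 2, and this moves every other TPM value. Of 10 stem cell markers, 9 were detected in both libraries, led by Hlf, whose factor marks long-lived stem cells, at 161.7 TPM in replicate 1 and at 97.98 TPM in replicate 2. Kit stood at 107.53 and 116.99 TPM and Cd34 at 98.06 and 78.12 TPM. Slamf1, another marker of stem cells, was detected in replicate 1 alone. Markers of other cells differed between the libraries: the 10 neutrophil and monocyte markers summed to 5.11 TPM in replicate 1 and to 342.61 TPM in replicate 2, and the 10 B cell markers to 11.97 and 41.92 TPM.

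Most members were present without any labelled stimulus. In both libraries 38 of 46 members were detected, or 82.6%, beside 45.5% of nuclear protein coding genes. The median member stood at 10.43 TPM in replicate 1 and at 7.715 TPM in replicate 2, beside 0.19 and 1.02 TPM for all nuclear protein coding genes. Most of that gap lay in genes that were off, as among genes detected in either library the medians were 13.635 and 8.69 TPM for members and 11.42 and 10.3 TPM for nuclear protein coding genes. Together the members held 789.22 TPM in replicate 1 and 602.55 TPM in replicate 2, which is 0.263% and 0.227% of the TPM on nuclear protein coding genes. At least 10 TPM was reached by 23 members in replicate 1 and 18 in replicate 2, of which 17 did so in both. The 5 highest members carried 38.1% and 44.2% of the summed member TPM.

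**Figure D1:**
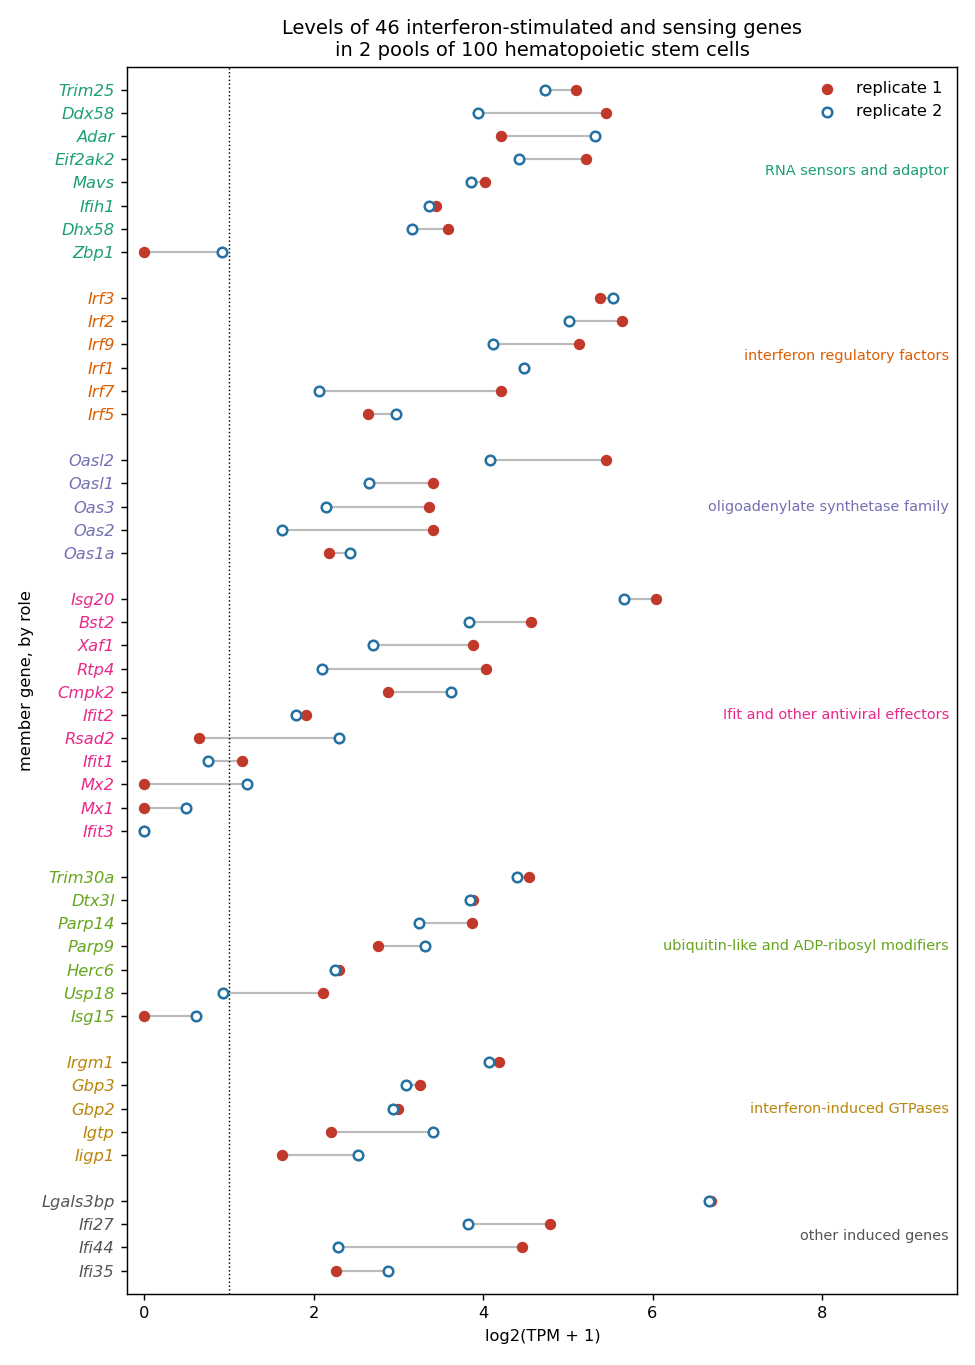
The level of each of the 46 members is plotted as log2(TPM + 1) on the horizontal axis, grouped down the page by role and ordered by mean TPM within a role. Filled points are replicate 1, open points replicate 2, and the dotted line is 1 TPM. Lgals3bp lies furthest right at about 100 TPM in both libraries, and Ifit3 lies at 0 in both.

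Many interferon-stimulated genes carry an interferon-stimulated response element, the sequence to which IRF9 and its partners bind. Its core was searched as GAAA, any 2 bases and GAAA, on either strand, in RefSeq promoter windows of GRCm38.p6, which run from 250 bases before to 50 bases after an annotated start. Windows were given for 35 members, and 16 of these (45.7%) held the core, beside 3.99% of the 27025 genes in the table. The longer form, the core followed by C, overlaps the core and was searched after the core had been counted; it was in 12 members (34.3%) and in 0.944% of genes. The gamma-activated site, a STAT-binding sequence searched as TTCNNNGAA, was in 10 members (28.6%) and in 9.55% of genes. Of the 16 members with the core, 13 held it before the start, and in Ddx58, Eif2ak2 and Ifih1 it lay after the start. Stretches before the start are printed for 7 of the 13 members, because they range from no count to well over 10 TPM and from higher in replicate 1 to higher in replicate 2. They are written along the gene's own strand, and capitals mark the core or its reverse complement.
Ifit3, chr19:34583353-34583402, plus strand: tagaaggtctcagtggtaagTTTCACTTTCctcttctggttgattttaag
Isg15, chr4:156200867-156200916, minus strand: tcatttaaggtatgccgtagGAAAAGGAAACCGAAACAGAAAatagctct
Ifit1, chr19:34640765-34640814, plus strand: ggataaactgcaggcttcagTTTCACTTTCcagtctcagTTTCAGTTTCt
Bst2, chr8:71537573-71537622, minus strand: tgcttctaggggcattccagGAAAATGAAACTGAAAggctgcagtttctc
Oas3, chr5:120777705-120777754, minus strand: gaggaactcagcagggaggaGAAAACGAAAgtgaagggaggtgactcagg
Rsad2, chr12:26456543-26456592, minus strand: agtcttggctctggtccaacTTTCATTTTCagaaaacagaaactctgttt
Igtp, chr11:58199502-58199551, plus strand: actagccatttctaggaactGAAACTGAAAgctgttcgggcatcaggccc
In Isg15 the core occurred 3 times in overlapping copies. The median member with the core stood at 8.895 TPM (replicate 1) and 8.375 TPM (replicate 2), against 17.45 and 13.31 TPM for the 19 members whose window did not hold it. The median difference, replicate 1 minus replicate 2 in log2(TPM + 1), was 0.155 with the core, over the 14 detected in either library, and 0.116 without it. A match is a description of letters and not a site shown to be bound, and the absence of a match covers these windows alone.

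Of the 8 genes of RNA sensing, 7 were detected in both libraries, at a median of 16.345 TPM (replicate 1) and 13.905 TPM (replicate 2) for the role. Trim25, a ubiquitin ligase that acts on RIG-I, stood at 33.13 TPM in replicate 1 and at 25.64 TPM in replicate 2. Mavs, the mitochondrial adaptor on which the RNA sensors converge, was at 15.24 and 13.48 TPM, from expected counts of 1342 and 676. Ifih1, which encodes the sensor MDA5, was at 9.84 and 9.27 TPM. The deposited TPM intervals of Mavs and Ifih1 overlapped between the libraries, while those of Trim25 lay apart, so Mavs and Ifih1 did not differ beyond them. Dhx58, which encodes LGP2, a regulator of the other sensors, was at 11.02 TPM in replicate 1 and at 7.95 TPM in replicate 2. Eif2ak2, whose product is the translation-blocking kinase PKR, reached 36.14 and 20.37 TPM. Both were less than 2-fold apart on the log2(TPM + 1) scale.

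The other 3 genes of this role differed more. Ddx58, which encodes the sensor RIG-I, had 42.58 TPM in replicate 1 and 14.33 TPM in replicate 2. Adar, which edits adenosine in double-stranded RNA and so keeps a cell's own RNA from being sensed, had 17.45 TPM in replicate 1 and 39.11 TPM in replicate 2. Zbp1, a sensor of Z-form nucleic acid that can trigger cell death, had no count in replicate 1 and 0.89 TPM from 27 counts in replicate 2. Ddx58 was thus higher in replicate 1 and Adar in replicate 2, so the role did not move in 1 direction. Read counts scaled by library size (CPM, with edgeR's TMM factors) placed both within 2-fold, with log2(CPM + 1) differences of 0.64 for Ddx58 and -0.69 for Adar, against 1.51 and -1.12 in log2(TPM + 1).

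The interferon regulatory factors formed the role with the highest median, at 27.71 TPM in replicate 1 and at 18.86 TPM in replicate 2, and all 6 were detected in both libraries. Irf3, the constitutive factor that turns on interferon genes after sensing, was at 40.6 and 45.45 TPM. Irf2, a repressor that in mice protects stem cells from interferon-driven exhaustion, was at 48.87 and 31.25 TPM. Its activating relative Irf1 was at 21.27 and 21.38 TPM, the closest pair of values in the role. Irf5, which acts below Toll-like receptors, was at 5.22 TPM in replicate 1 and at 6.83 TPM in replicate 2. Irf9, the DNA-binding partner of STAT proteins, was at 34.15 and 16.34 TPM, and Irf7, the inducible amplifier of interferon genes, at 17.53 and 3.18 TPM. Irf9 and Irf7 were the 2 factors at least 2-fold higher in replicate 1 in TPM. By CPM neither reached 2-fold, with differences of 0.30 for Irf9 and 0.78 for Irf7 on the log2(CPM + 1) scale.

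For Irf7 (chr7:141262706-141266481 on GRCm38) the gap between the scales came with a short transcript. In replicate 1 a processed transcript of 332 bases, Irf7-208, was given 9.74 TPM from 65.57 of the gene's 403 counts, and in replicate 2 it was given none. The protein coding transcripts of Irf7 summed to 4.28 TPM in replicate 1 and 2.28 TPM in replicate 2. For Irf9 a retained-intron transcript of 630 bases, Irf9-201, held 17.46 TPM in replicate 1 and 1.43 TPM in replicate 2, while coding transcripts summed to 12.19 and 9.58 TPM. The difference between libraries in both genes was thus smaller on coding transcripts than on the gene total.

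The oligoadenylate synthetase family makes the short RNA-like messengers that activate the antiviral nuclease RNase L. Oas2 had 9.58 TPM in replicate 1 and 2.09 TPM in replicate 2, on 958 and 124 expected counts. Oas3 had 9.23 and 3.42 TPM, and Oasl2 had 42.72 and 15.9 TPM. These 3 genes were at least 2-fold higher in replicate 1 in TPM and in CPM. Oasl1, which in mice restrains translation of Irf7, was at 9.58 TPM in replicate 1 and at 5.28 TPM in replicate 2, and Oas1a was at 3.53 and 4.39 TPM. Oas1a, the only family member listed here that was higher in replicate 2, shares reads with near-identical copies and has fractional counts, so its value is uncertain. The median difference of the 5 genes was 1.211 on the log2(TPM + 1) scale, the largest of the 7 roles, beside 0.095 for all genes detected in either library. Oas2 and Oas3 lie 3244 bases apart on the minus strand of chromosome 5, and Oasl1 and Oasl2 lie 11005 bases apart on its plus strand.

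The antiviral effectors ranged from no count to 64.59 TPM in replicate 1 and to 49.47 TPM in replicate 2. Isg20, an exonuclease that degrades RNA, held the upper end of that range. Bst2, the tether that holds budding virus at the cell surface, was at 22.69 TPM in replicate 1 and at 13.21 TPM in replicate 2. Rtp4, an interferon-induced protein that acts against flaviviruses, was at 15.38 and 3.28 TPM, from expected counts of 716 and 86. Xaf1, a binding partner of the apoptosis inhibitor XIAP, was at 13.72 and 5.52 TPM. All 4 were higher in replicate 1, Rtp4 and Xaf1 by at least 2-fold in TPM and only Rtp4 of these 4 in CPM as well.

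Rsad2, which encodes viperin, had 0.56 TPM in replicate 1 and 3.9 TPM in replicate 2, on 73 and 118 expected counts. Cmpk2, a nucleotide kinase whose gene lies 12751 bases from Rsad2 on chromosome 12, had 6.33 TPM in replicate 1 and 11.3 TPM in replicate 2. Both of these neighbours were higher in replicate 2, Rsad2 by at least 2-fold in TPM and in CPM. Rsad2 was not detected in replicate 1, and transcripts that are not protein coding held all of its TPM there and 82.4% in replicate 2.

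A further 6 members were low, among them Isg15, Ifit1 and Mx1, which are often read as marks of an interferon response. They were picked here for their low values, while other induced members such as Irf7, Oasl2 and Ifi44 were above 10 TPM in replicate 1. Ifit2 was at 2.74 TPM in replicate 1 and at 2.45 TPM in replicate 2, and Ifit1, which binds foreign RNA caps, was at 1.22 and 0.68 TPM. Ifit3 had no count in either library, where 3 counts would have been worth 0.0576 TPM in replicate 1 and 0.1024 TPM in replicate 2. Isg15, the ubiquitin-like tag of the response, had no count in replicate 1 and 0.53 TPM from 6 counts in replicate 2. Mx1 and Mx2, relatives of dynamin, had no count in replicate 1 and 0.41 and 1.32 TPM in replicate 2, from 11 and 23 counts. Mx2 is annotated as a polymorphic pseudogene and Mx1 as protein coding, which does not show that either makes a working protein in these mice. None of these 6 exceeded 3 TPM, and Ifit2 alone of them was detected in both libraries.

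Altogether 5 members had no count in replicate 1 (Ifit3, Isg15, Mx1, Mx2 and Zbp1) and 1 in replicate 2 (Ifit3), beside 48.7% and 38.6% of nuclear protein coding genes. The 4 with counts in replicate 2 alone held 0.41 to 1.32 TPM there. Of the 1331 nuclear protein coding genes at 0.4 to 1.4 TPM in replicate 2, 48.7% likewise had no count in replicate 1, so an absence at that level was common in the deeper library. A count of 0 therefore bounds the reads and not the RNA in the cells. Ifit1 and Usp18 were detected in replicate 1 alone, Rsad2 and Mx2 in replicate 2 alone, and Ifit3, Isg15, Mx1 and Zbp1 in neither.

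Among the modifiers, the ubiquitin ligase gene Trim30a was at 22.21 TPM in replicate 1 and at 20.12 TPM in replicate 2, and its counts are partly shared with similar genes. Dtx3l, a ubiquitin ligase that works with PARP9, was at 13.67 and 13.31 TPM, and Herc6, the ligase that attaches ISG15 in mice, at 3.92 and 3.77 TPM. The deposited intervals of these 3 overlapped between the libraries. The ADP-ribosyl transferase genes Parp14 and Parp9 differed in opposite directions, with 13.6 and 8.44 TPM for Parp14 and 5.74 and 8.94 TPM for Parp9. Usp18, which removes ISG15 and also restrains the interferon receptor, was at 3.33 TPM in replicate 1 and at 0.91 TPM in replicate 2. In replicate 2 its 0.91 TPM (27 counts) stood beside 0.53 TPM (6 counts) for Isg15, and in replicate 1 its 176 counts stood beside none.

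The interferon-induced GTPases attack the membranes that enclose parasites inside cells. Irgm1 was at 17.16 TPM in replicate 1 and at 15.82 TPM in replicate 2, Gbp3 at 8.56 and 7.48 TPM, and Gbp2 at 6.95 and 6.63 TPM. These 3 genes also had overlapping deposited intervals. Igtp had 3.6 TPM in replicate 1 and 9.63 TPM in replicate 2. Iigp1 had 2.08 and 4.75 TPM. Both were higher in replicate 2, Igtp by at least 2-fold in TPM and CPM and Iigp1 in CPM. Igtp overlaps Irgm2 on the same strand over 7974 bases, and Irgm2 lay the other way, with 14.89 TPM in replicate 1 and 6.29 TPM in replicate 2, so both values depend on how shared reads were divided. In replicate 1 all counts of Igtp were assigned to a transcript of 72 coding residues, Igtp-203. In replicate 2 most were assigned to Igtp-201, of 423 residues. The 2 transcripts overlap, so this is an estimate and not a shown switch.

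Of the 4 other induced genes, Lgals3bp, which encodes a secreted galectin-binding glycoprotein, was the most abundant member at 102.07 TPM in replicate 1 and at 100.86 TPM in replicate 2. Ifi44, a cytoplasmic protein gene induced by type I interferon, had 20.93 TPM in replicate 1 and 3.86 TPM in replicate 2, on 1896 and 215 expected counts. Its difference of 2.17 on the log2(TPM + 1) scale was the largest of any member, and CPM gave 2.08. Ifi27, which encodes a small mitochondrial and nuclear membrane protein, was at 26.68 and 13.08 TPM, and Ifi35 was at 3.81 and 6.33 TPM. Ifi44 was thus high in replicate 1 alone, while Lgals3bp did not separate the libraries.

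Among the 42 members detected in either library, 10 were at least 2-fold higher in replicate 1, or 23.8%, beside 13.1% of the 12862 genes detected in either library. In replicate 2, 4 were at least 2-fold higher, or 9.52%, beside 14.1%. The 10 were Ifi44, Irf7, Rtp4, Oas2, Ddx58, Oasl2, Oas3, Usp18, Xaf1 and Irf9, and the 4 were Rsad2, Mx2, Igtp and Adar. The other 28 lay within 2-fold. Usp18 and Ifit1 entered this set through replicate 1 alone, and Rsad2 and Mx2 through replicate 2 alone. Among the 38 members detected in both libraries, 9 were at least 2-fold higher in replicate 1 and 2 in replicate 2, beside 11% and 5.45% of all genes so filtered.

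The members did not share a single direction. By any amount, 30 of 42 members were higher in replicate 1, or 71.4%, beside 55.1% of all genes. Scaled to nuclear protein coding genes alone, TPM gave 21 of 42, beside 45.1% of those genes. CPM gave 25 of 42, beside 48.2% of all genes, so the excess in replicate 1 depended on the scale. The median difference was 0.169, beside 0.095 for all genes and 0.086 for nuclear protein coding genes. With TPM rescaled to nuclear protein coding genes it became 0.008, beside -0.082 for those genes. The quartiles of the members were -0.121 and 0.931, beside -0.458 and 0.584 for all genes. The 2-fold calls kept their excess of higher values in replicate 1 under each scale tried here, at 9 against 5 with rescaled TPM and 7 against 3 with CPM. The rescaled calls stood beside 10.6% and 16.5% of nuclear protein coding genes, and the CPM calls beside 8.82% and 12.3% of all genes. Ifi44, Oas2, Oas3, Oasl2, Rtp4 and Usp18 were called in replicate 1, and Igtp and Rsad2 in replicate 2, by TPM and CPM alike. The deposited TPM intervals lay apart with replicate 1 higher for 19 members and with replicate 2 higher for 8, beside 39.8% and 30.2% of all genes.

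**Figure D2:**
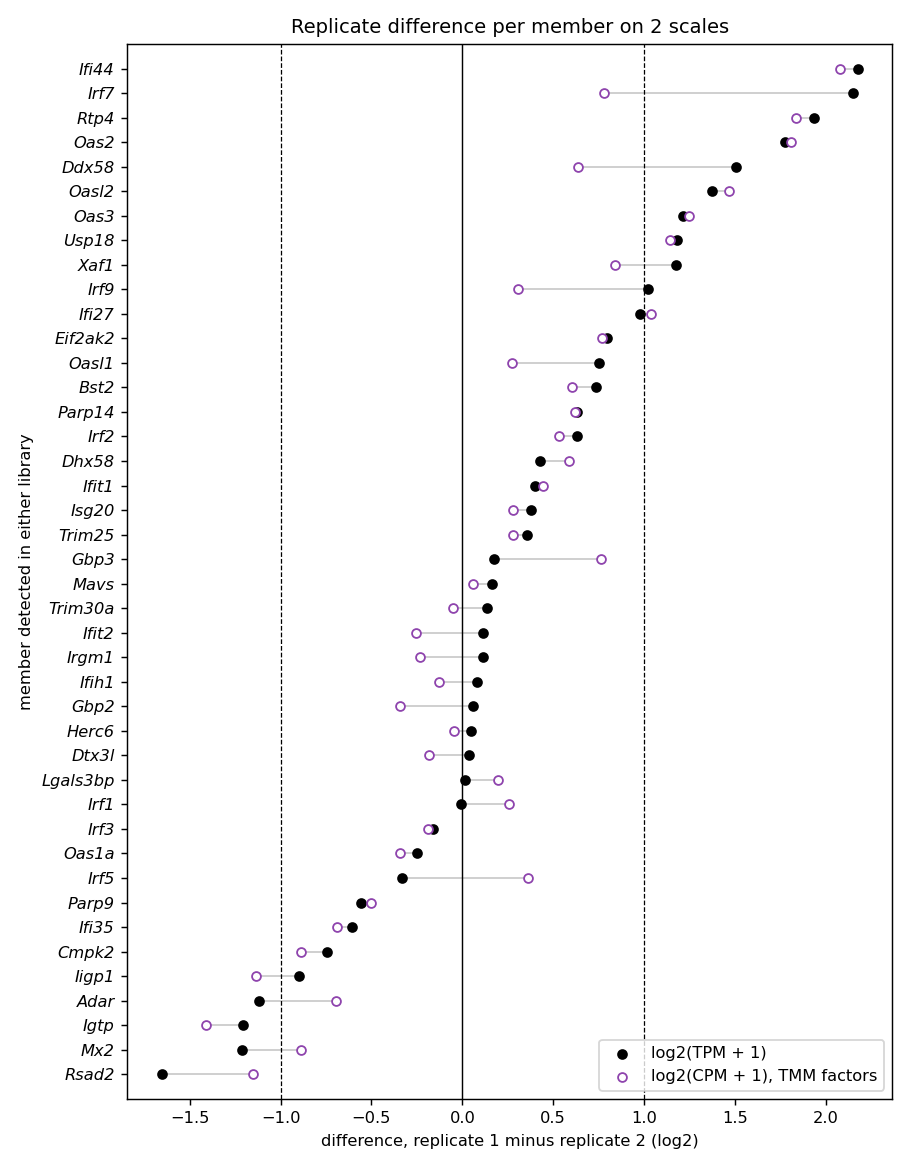
For the 42 members detected in either library, the difference of replicate 1 minus replicate 2 is plotted in log2 units, filled for log2(TPM + 1) and open for log2(CPM + 1) with TMM factors, and dashed lines mark 2-fold. Ifi44, Rtp4, Oas2 and Oas3 keep their place on both scales, while Irf7, Ddx58 and Irf9 move inside the 2-fold line in CPM.

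The deposited transcript values estimate how the reads of a gene divide between its transcripts, and transcripts that overlap can share reads. Of 31 members detected in both libraries with counts on at least 2 transcripts, 19 had the same leading transcript in both libraries and 12 had another. The 46 genes have 193 transcripts, of which 89 had counts in replicate 1 and 134 in replicate 2. Neither the leading transcripts nor the transcripts with counts were tallied over all genes, so these counts are not read as a trait of the members. Retained-intron transcripts held 10.99% of member TPM in replicate 1 and 11.2% in replicate 2, beside 14.84% and 14.68% for nuclear protein coding genes detected in both libraries. Oasl2 and Ddx58 were given no TPM on a protein coding transcript in replicate 1, against 3.77 and 1.66 TPM in replicate 2. For Oasl2 the leading transcript was Oasl2-205, annotated for nonsense-mediated decay, at 34.74 TPM in replicate 1 and at 8.13 TPM in replicate 2. For Ddx58 the leading transcript in replicate 1 was Ddx58-203, a processed transcript of 756 bases, at 19.34 TPM, against 1.64 TPM in replicate 2. By this division the coding transcripts of these 2 genes were higher in replicate 2, the opposite of their gene totals. Oasl2-205 and Ddx58-203 lie within the span of a coding transcript of the same gene. A coding value of 0 therefore does not show that replicate 1 lacked coding RNA of these genes.

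**Figure D3:**
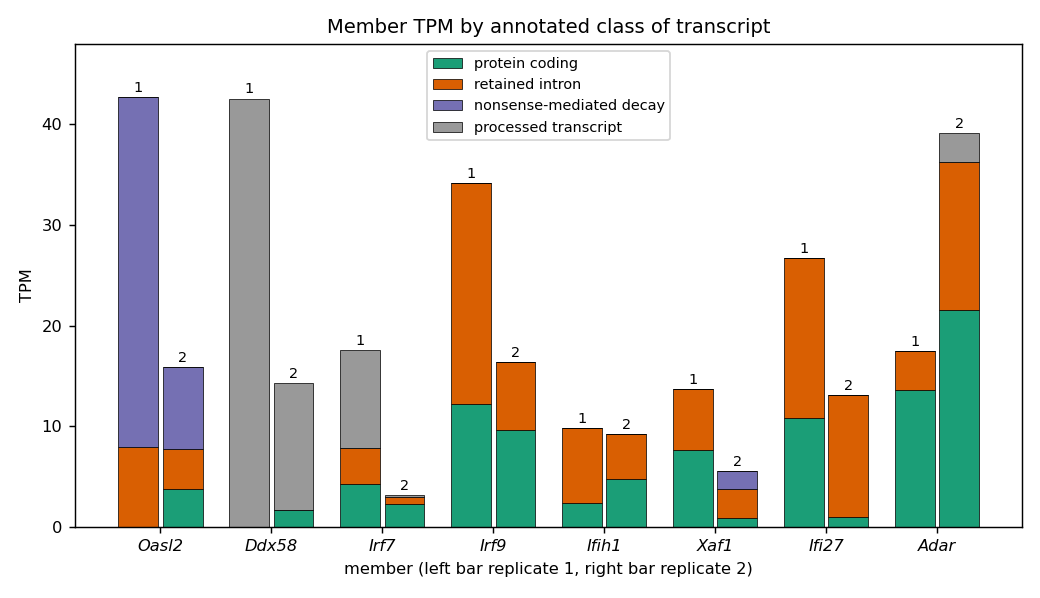
Bars show TPM for 8 members, split by the annotated class of transcript, with replicate 1 at the left and replicate 2 at the right of each pair. Oasl2 and Ddx58 are given no protein coding part in replicate 1, and coding transcripts make up most of Adar in both libraries. The split is an estimate, as transcripts of a gene can share reads.

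Coding transcripts alone gave 8 members at least 2-fold higher in replicate 1 (Dhx58, Ifi27, Ifi44, Oas2, Oas3, Rtp4, Usp18 and Xaf1) and 4 in replicate 2 (Ddx58, Ifi35, Igtp and Oasl2). The share over all genes was not computed on coding transcripts, so these counts have no background to be read against. Ifi44, Oas2, Oas3, Rtp4 and Usp18 were thus higher in replicate 1 in gene TPM, CPM and coding TPM. For Oas3, Rtp4 and Usp18 all counts lay on 1 coding transcript. Their coding TPM therefore equals their gene TPM and is no further evidence. Adar has a long form, which interferon induces, and a short constitutive form. The 2 transcripts of 1152 and 1178 coding residues, the length class of the long form, summed to 12.77 TPM in replicate 1 and 19.88 TPM in replicate 2. The transcript of 930 residues, the length of the short form, had 0.82 and 1.67 TPM. The long class was thus the larger in both libraries, although the forms share most of their length and are told apart mainly by their first exons.

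The wider pathway was read from further lists. None of the 21 interferon genes listed, from Ifnb1 and the Ifna family to Ifng and Ifnl2, had a count in either library, and 3 counts would have been worth 0.0698 to 0.2132 TPM in replicate 1 and 0.1241 to 0.3835 TPM in replicate 2. Of 11 receptor and signal carrier genes, 10 were detected in both libraries. The kinase gene Jak1 was at 65.74 TPM in replicate 1 and at 47.53 TPM in replicate 2, the receptor chain gene Ifnar2 at 63.56 and 44.16 TPM, and Ifngr1 at 44.9 and 57.13 TPM. Receptor, JAK and STAT genes thus had counts where no listed interferon gene had any. Stat2, which encodes a partner of IRF9, was at 5.7 TPM in replicate 1 and at 7.07 TPM in replicate 2.

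Of 12 genes that restrain interferon signalling, 10 were detected in both libraries, led by the phosphatase gene Ptpn6 at 70.83 TPM in replicate 1 and at 38.45 TPM in replicate 2. Samhd1, Nlrc5 and Ptpn11 followed. Socs3 (12.56 and 2.67 TPM), Socs1 (1.65 and 0.1 TPM) and Usp18 were at least 2-fold higher in replicate 1, and none was in replicate 2. All 12 were detected in at least 1 library, and the shares over all genes so detected were 13.1% and 14.1%. Socs1 and Socs3 encode suppressors that block JAK kinases. Among the 14 adaptors and kinases below the sensors, all were detected in both libraries, with Ikbkb at 69.43 and 50.46 TPM and Tank at 18.65 and 28.72 TPM. Chuk (42.03 and 18.91 TPM) and Ikbke (31.62 and 12.88 TPM) were at least 2-fold higher in replicate 1, and Traf3 (3.88 and 11.38 TPM) and Azi2 (13.41 and 32.27 TPM) in replicate 2. The 2-fold differences in that list were thus 2 in each direction, beside the same 13.1% and 14.1% of all genes. By any amount 9 of its 14 genes were higher in replicate 1, beside 55.1% of all genes.

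Sensors of DNA and of endosomal nucleic acid were uneven, with 6 of 12 matched genes detected in both libraries. Mndal was at 109.89 TPM in replicate 1 and at 52.12 TPM in replicate 2, Ifi203 at 101.77 and 58.89 TPM, and Aim2, which assembles an inflammasome on DNA, at 55.28 and 21.78 TPM. Polr3a, a subunit of RNA polymerase III, was the next at 9.93 and 7.58 TPM. Mndal and Aim2 were at least 2-fold higher in replicate 1, though Mndal and Ifi203 belong to a family of similar genes with fractional counts and are uncertain. Ifi205 and Ifi202b had no count. Of 43 further interferon-stimulated genes matched, 35 were detected in both libraries. Apobec3, a deaminase that restricts retroviruses, was at 213.35 and 167.66 TPM, Ifitm2 at 233.86 and 134.26 TPM, Ifitm3 at 142.55 and 70.28 TPM and Ifitm1 at 95.35 and 74.57 TPM. These IFITM genes, which block viral entry, stood above every member of the main list other than Lgals3bp in both libraries. Ifitm2 was above Lgals3bp too in both libraries, Ifitm3 in replicate 1 alone and Ifitm1 in neither.

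In that longer list 40 genes were detected in either library. Of these, 9 were at least 2-fold higher in replicate 1, among them Tgtp1, Oas1g, Parp12, Psmb10, Slfn5, Gbp9, Irgm2 and Ifitm3. Replicate 2 was at least 2-fold higher for 1 (Ifi27l2a, no count and 1.99 TPM). The shares over all genes detected in either library were 13.1% and 14.1%. Tgtp1 stood at 36.32 and 5.36 TPM and its near-identical neighbour Tgtp2 at 12.58 and 21.83 TPM. As reads can be split between them, their sum, 48.9 TPM (replicate 1) and 27.19 TPM (replicate 2), is the safer value, and it is less than 2-fold apart. Parp12 was at 11.39 and 3.23 TPM and Psmb10, an immunoproteasome subunit gene, at 25.39 and 8.75 TPM. Ifit3b and Ifi44l had no count in either library.

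**Figure D4:**
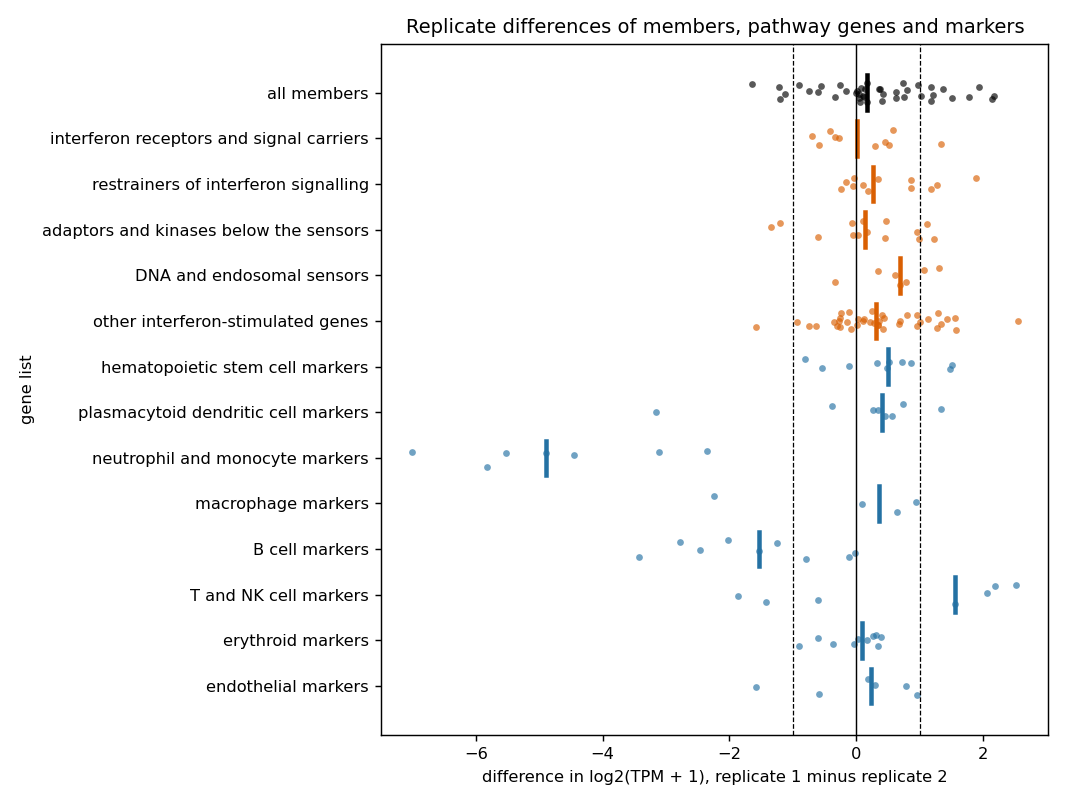
The difference in log2(TPM + 1), replicate 1 minus replicate 2, is plotted for each gene detected in either library, with a thick bar at each list's median and dashed lines at 2-fold. Black is the 46-gene list, orange the pathway lists and blue the markers of cell types. Neutrophil and monocyte markers lie far to the left, higher in replicate 2, while the member and pathway medians lie near 0 or to its right.

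Cells other than stem cells also express these genes, and in bulk RNA fewer cells of a type and less RNA per cell cannot be told apart. Plasmacytoid dendritic cells, the main producers of type I interferon, have Siglech as a defining marker, and it had no count in replicate 1 and 0.85 TPM from 17 counts in replicate 2. Of that 10-gene list 6 were detected in both libraries, with a sum over all 10 of 136.0 TPM in replicate 1 and of 113.24 TPM in replicate 2. Of the 8 detected in either library 6 were higher in replicate 1, among them Spib (2.0 and 0.19 TPM), Cox6a2 (2.33 and 1.25 TPM) and Ccr9 (2.85 and 2.04 TPM), and Ly6d had no count in replicate 1 and 7.9 TPM in replicate 2. Its leaders Runx2 (52.3 and 43.25 TPM), Tcf4 (44.5 and 32.05 TPM) and Bst2, itself a member, are also expressed by other blood cells. The macrophage list had 2 of 10 in both and summed to 10 and 11.13 TPM, with C1qa, C1qb and C1qc at no count, and Cd68, Csf1r and Vcam1 highest. Of the neutrophil and monocyte markers 1 of 10 was detected in both, led by Ngp at 0.09 TPM in replicate 1 and at 139.5 TPM in replicate 2, then S100a9 and S100a8, with no count for Mmp8, Retnlg and Ly6g. The 10 members that were higher in replicate 1 thus lay opposite to the granule genes, and Rsad2, Mx2, Igtp and Adar on the same side, and the part of these cells in either was not tested.

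The B cell list had 3 of 10 genes detected in both libraries, with Cd79a at 7.36 and 7.43 TPM, Igll1 at no count and 9.73 TPM and Blnk at 2.89 and 5.72 TPM. All 9 detected in either library were higher in replicate 2, with a median difference of -1.526. By at least 2-fold 6 of them were, beside 14.1% of all genes. Of the T and NK cell markers 3 of 10 were detected in both, led by Nkg7 (36.18 and 55.76 TPM), then Ncr1 (7.04 and 1.74 TPM) and Lck (1.19 and 6.95 TPM). That list summed to 58.39 TPM in replicate 1 and to 67.52 TPM in replicate 2. Without Nkg7, which carried most of that sum, the list was uneven. Ncr1, Klrb1c (7.24 and 0.43 TPM), Cd3e (3.56 TPM and no count) and Cd3g (3.18 TPM and no count) were at least 2-fold higher in replicate 1, as the 10 members above were, and Lck and Gzma in replicate 2, with a list median difference of 1.553. Cd3d and Cd8a had no count. All 10 erythroid genes were detected in both, led by Car1 at 1332.75 and 1070.85 TPM, Car2 and Hba-a2, and the endothelial list had 4 of 10, led by Pecam1 (35.98 and 20.56 TPM), Tie1 and Esam, with no count for Cdh5, Kdr and Cldn5. The erythroid genes lay within 2-fold in both directions, and the part of these cells in the members' levels was not tested.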

How the data were processed

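The authors deposited expected counts, reads estimated for each gene and transcript with ambiguous reads divided between places. TPM and FPKM were deposited by the authors beside them, as were bounds of a TPM interval (a signal per gene whose level the file headers do not give, and outside which a TPM can fall since it surrounds a posterior mean), effective length, and the percent of a gene's TPM on each transcript. The build is mm10 with GENCODE M4, per the deposited text files, and per the file headers the columns have the names that RSEM uses. No source used here names the aligner, its version or whether strand was kept, so genes that overlap on opposite strands, such as Adar and Chrnb2 or Irf3 and Bcl2l12, may share reads.

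Symbols came from a gene name table and GENCODE M21 on GRCm38, the same build. Differences are log2(TPM + 1) of replicate 1 minus replicate 2, which understates low genes, and 2-fold is a difference of 1. A count of 0 was given a limit of 3 counts, for counting error only. CPM used TMM factors from edgeR 4.0.16, and DESeq2 1.42.0 gave size factors, in R 4.3.3, on expected counts. Python 3.11.15, numpy 2.4.6, pandas 2.3.3 and matplotlib 3.10.9 did the rest. The fold calls were run on simulated counts with known folds, and scored only for genes with a mean of at least 10 TPM. The simulation gave each gene 1 length in both libraries. It therefore does not cover the 22 members with a mean under 10 TPM or differences that turn on transcript length. Alternatives were detection thresholds, pseudocounts, fold limits, posterior mean TPM, FPKM, rescaled TPM, both count scalings and other gene filters.

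The members and lists were chosen with earlier results of these data known. All members are named, and of each pathway list the 4 of highest mean TPM, every gene at least 2-fold apart except 1 that is not reported here, and genes with no count where at most 6. Of each marker list the 3 of highest mean TPM are named, and of transcripts the leading one, for members where the library difference turned on it. Tgtp2 and Stat2, and further marker and interferon genes, were chosen for naming once their values had been seen. Gbp5, Gbp6, Pyhin1 and Mb21d1 (an older name of Cgas, which was counted) had no match.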

Additional observations from a re-analysis of the deposited data

How the results depend on the processing

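The count of members detected in both libraries stayed within 1.5 times of 38 under every threshold and unit tried. The mean of the library medians of member TPM was 9.072, and became 5.882 in FPKM, 31.897 with TPM rescaled to nuclear protein coding genes and 11.162 over members detected in either library. It ranged from 7.715 to 10.43 with 1 library left out. The 10 members at least 2-fold higher in replicate 1 became 6 with a pseudocount of 5 TPM (beside 5.59% of genes), 5 among members with a mean of at least 10 TPM (11.1%), 16 at 1.5-fold (25%), 2 at 4-fold (2.68%) and 19 by deposited intervals (39.8%). The 4 in replicate 2 became 0 (3.22%), 1 (4.04%), 7 (21.2%), 0 (3.56%) and 8 (30.2%) under the same settings, and 2 among members detected in both (5.45%). The median difference of 0.169 became 0.008 with rescaled TPM, 0.275 with CPM, 0.27 with DESeq2 size factors and 0.503 at a mean of at least 10 TPM, where 17 of 20 members were higher in replicate 1. Rescaling moved the median of nuclear protein coding genes detected in either library to -0.082, against 0.086 as deposited. The comparison by intervals, and one without Bst2 and Irf7, were added after the data were seen. No paired analysis was possible because the series has 1 group, and leaving out a library gives no value for a difference between libraries. A gene with no count in one library cannot be told from one below the limit of 3 counts. Isg15, Mx1, Mx2 and Zbp1 had no count in replicate 1, the deeper library. Their TPM in replicate 2 was 3.59, 10.27, 22.27 and 18.14 times that limit in replicate 1. The deposited intervals lay apart for Isg15, Mx2 and Zbp1 and overlapped for Mx1. What set these absences was not tested.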
